A study of Mus musculus with 6 samples.

Results

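The genes described here are those of G protein, RGS and cyclic AMP (cAMP) signalling in activated lung group 2 innate lymphoid cells (ILC2s), the lymphocytes without antigen receptors that release type 2 cytokines in the airways. They were chosen by symbol alone: G protein alpha, beta and gamma subunits, regulators of G protein signalling (RGS), adenylyl cyclases, phosphodiesterases (PDEs), subunits of protein kinase A (PKA), A-kinase anchoring proteins (AKAPs) and the CREB and CREM factors. The rule took 85 of the 15212 listed genes. It uses no measured value, but the genes, their roles and the pathway lists below were chosen with earlier results of these data known. The symbols also brought in a few genes with another function, namely Gnasas1 (an antisense RNA), Gng5-ps (a pseudogene), Gnb1l, Pde4dip, Pde6d and Pde12.

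Bulk RNA sequencing was carried out on lung ILC2s of wild-type (WT) BALB/c mice (BALB/cByJ in the study's methods), 3 libraries, and of mice without VISTA, a checkpoint receptor encoded by Vsir, also 3 libraries. The Vsir-/- mice carry the allele B6N.129S5(B6)-Vsirtm1Lex/Mmucd on a BALB/c background. All mice of both genotypes had received 0.5 µg of recombinant mouse IL-33 intranasally on 3 consecutive days, and the cells were taken on day 4, so every value is from IL-33-activated ILC2s (aILC2s) and no unstimulated cells were compared. The cells were sorted by flow cytometry as CD45+ cells without lineage markers that carried ST2 and CD127, so Il1rl1, Il7r and Ptprc were part of the gate. The Vsir-/- mice lack the gene in every cell type, not in ILC2s alone. The methods give the study's mice as matched for sex and 5 to 8 weeks old. In 1 label field the cells are fresh from the lung and in another they had been in culture, so the handling before lysis is unclear. Neither the labels nor the methods say that the libraries came from separate mice. The label codes of replicates 1 and 2 share a number within each genotype, with P1 added for replicate 2, so these may be related material. P-values therefore measure only the spread between these libraries, and counts were also made with replicates 1 and 2 summed.

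In a G protein-coupled receptor pathway, the receptor makes the alpha subunit exchange GDP for GTP, and alpha then acts apart from the beta-gamma pair. Gs alpha stimulates and Gi alpha inhibits adenylyl cyclases, the enzymes that make cAMP, while RGS proteins speed GTP hydrolysis on Gi and Gq class subunits and so shorten the signal. PDEs break cAMP or cGMP down. cAMP binds the regulatory subunits of PKA, frees its catalytic subunits and lets them phosphorylate CREB, and AKAPs hold PKA in place. In lymphocytes, Gi carries chemokine signals and the Gs and cAMP branch is known as a brake on activation. In ILC2s, prostaglandins, catecholamines and neuropeptides act through such receptors.

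CREB and CREM bind the cAMP response element (CRE), so the promoters of the members were searched for it. RefSeq promoters of GRCm38.p6, from 250 bases before to 50 bases after the start, were found for 67 of the 85 members. The full element TGACGTCA reads the same on both strands. It occurred in 2 of the 67 members (2.99%), in 3.73% of the 9401 tested genes with a promoter and in 2.03% of all 27025 genes with one. The core, TGACG or CGTCA on the other strand, lies within the full element. It occurred in 24 of the 67 members (35.8%) and in 36.2% of the tested genes. Pde4b was the 1 of 6 members higher in Vsir-/- aILC2s with a core, and 6 of 21 members lower in Vsir-/- aILC2s had one, as did 14 of the 35 that did not pass the test. Each match is a description of letters, not of a bound site. The called members Gnb2, Pde8a and Prkacb also had a core and are not shown. The windows below show full elements of both members with one and 4 cores picked by hand from called members, with the element in capitals.
Prkar1a (chr11:109650855-109650954, + strand, element starting 49 bases before the start): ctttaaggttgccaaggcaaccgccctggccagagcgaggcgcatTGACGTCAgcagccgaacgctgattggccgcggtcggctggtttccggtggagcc
Creb5 (chr6:53287213-53287312, + strand, 45 bases before the start): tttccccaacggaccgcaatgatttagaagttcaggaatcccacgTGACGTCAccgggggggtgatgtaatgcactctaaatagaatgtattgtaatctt
Pde4b (chr4:102421476-102421575, + strand, 34 bases before the start): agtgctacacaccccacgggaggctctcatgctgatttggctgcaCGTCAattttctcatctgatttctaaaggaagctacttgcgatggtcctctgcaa
Adcy7 (chr8:88282919-88283018, + strand, 28 bases before the start): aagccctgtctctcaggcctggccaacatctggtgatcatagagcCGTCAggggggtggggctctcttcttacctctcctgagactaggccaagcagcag
Rgs2 (chr1:144004162-144004261, - strand, 67 bases before the start): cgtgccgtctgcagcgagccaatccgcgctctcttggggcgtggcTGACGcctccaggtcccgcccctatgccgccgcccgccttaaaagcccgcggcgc
Gnas (chr2:174327666-174327765, + strand, 57 bases before the start): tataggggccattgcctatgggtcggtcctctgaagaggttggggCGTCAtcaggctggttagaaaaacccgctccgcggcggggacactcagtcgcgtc

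Levels are given in CPM, estimated counts per total of the library scaled to a common size with TMM factors. Total estimated counts were 15680871 to 29197984 per library, with WT replicate 2 the deepest. A count of 0 allows a level of up to 0.103 to 0.191 CPM, which covers counting error only. Vsir, the deleted gene, stood at 6.82, 6.41 and 7.34 CPM in WT and at 0, 0.122 and 0 CPM in Vsir-/- libraries (0, 2 and 0 counts), as the labels say. All 10 ILC2 markers were listed, and 8 of them moved with the genotype: Gata3 (log2 fold change -0.80), Rora, Klrg1, Icos and Thy1 (-1.88) were lower and Il7r, Il5 and Il2ra higher, while Il1rl1 (ST2) and Ptprc did not pass. The marker counts stand beside 38.9% of all tested genes that passed the test given below, 18.9% higher and 20.1% lower. Of 45 markers of other cell types, 20 were listed, and 8 of these stayed under 1 CPM in every library. Of the 12 tested, 5 were lower and 2 higher in Vsir-/- libraries, and the summed level of the 20 was 135 to 149.6 CPM in WT and 101 to 108 CPM in Vsir-/- libraries. The T cell marker Cd3e was at 7.97 to 9.02 CPM in WT and 3.21 to 4.61 in Vsir-/- libraries, the dendritic cell marker Xcr1 at 53.7 to 62.9 and 29.9 to 34.6, the epithelial marker Epcam at 19.4 to 21.8 and 4.05 to 5.41, and the endothelial marker Pecam1 at 35.6 to 41.1 and 48.3 to 53.8. The basophil marker Mcpt8 was at 0.626 to 1.05 and 2.89 to 5.73 CPM, the mast cell marker Cpa3 at 1.004 to 1.69 and 0 to 0.0642, and the red cell marker Hba-a1 at 2.504 to 3.29 and 0.578 to 1.22. Other markers on the same lists did not follow: the T cell marker Trac was at 0 to 0.175 CPM in all libraries, and the dendritic cell marker Itgax did not pass (log2 fold change 0.13). The part of other cells in the results was not tested.

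The genotypes were compared with edgeR's quasi-likelihood test over the 13166 genes that passed a filter on low counts, and a gene was called when its Benjamini-Hochberg adjusted p over all of them was below 0.05. This called 38.9% of all tested genes, 18.9% higher and 20.1% lower in Vsir-/- aILC2s. Of the 85 members, 76 were tested, and 33 of these (43.4%) were called. Most of the called members were lower in the absence of VISTA: 26 of 76 (34.2%) were lower, 7 (9.21%) were higher and 43 did not pass. Without the symbols of another function, 25 of 71 were lower and 6 higher. Their median log2 fold change (Vsir-/- against WT) was -0.15, against -0.01 over all tested genes. The levels of the genotypes did not overlap for 46 of the 76 members (60.5%), and for 49.4% of all tested genes. A called change of at least 2-fold was found for 9 members (11.8%), against 10.7% of all tested genes. The summed level of the tested members was 7895, 8190.4 and 8043 CPM in WT libraries and 6849.5, 6915 and 6748 CPM in Vsir-/- libraries, so the genotypes did not overlap. Abundant members weigh most in this sum, so it does not describe the 76 members one by one. Gnai2 had a mean of 1136.1 CPM in WT and 786 in Vsir-/- libraries, and Gnas 977 and 744 CPM. In bulk samples, fewer cells of a type and less RNA per cell cannot be told apart.

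With replicates 1 and 2 summed, 25 members were called, 4 higher and 21 lower, and 24 of these were among the 33. Over all genes the share called was 26.4% (3708 genes) in this setting. Creb3, Gna13, Gna14, Gna15, Gng3, Pde12, Pde8a, Rgs1 and Rgs9 did not pass in it (adjusted p from edgeR 0.0540 to 0.153). When both P1 libraries were left out instead, a choice made after the data were seen, 21 members were called, 4 higher and 17 lower, all among the 33, beside 24.4% of all genes (3240). Akap7, Akap13, Creb3, Gna13, Gna14, Gna15, Gng3, Pde7a, Pde8a, Pde12, Rgs2 and Rgs9 did not pass then (0.0583 to 0.167). Leaving out single libraries kept 22 of the 33 calls in all 6 fits. The number of higher members was 4 without WT replicate 1 and 10 without Vsir-/- replicate 3, and that of lower members was 20 without Vsir-/- replicate 2.

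**Figure D1:**
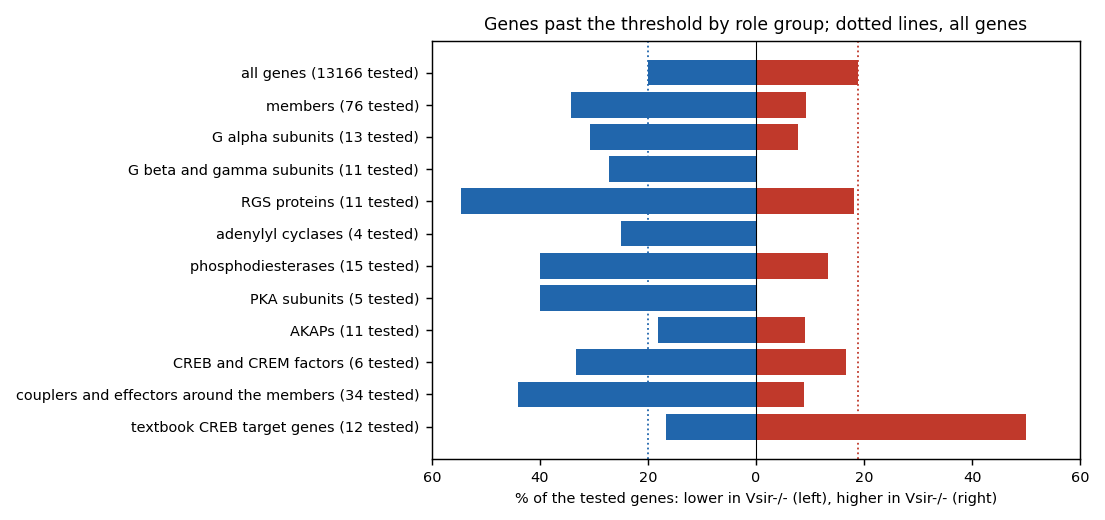
Percent of the tested genes of each group that were higher (right, red) or lower (left, blue) in Vsir-/- aILC2s at an adjusted p below 0.05. The dotted lines mark the shares over all 13166 tested genes, 18.9% higher and 20.1% lower; 34.2% of the 76 members were lower and 9.21% higher.

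The 9 members not tested were near the detection limit. Rgs8 had 44 counts summed over the WT libraries and 7 over the Vsir-/- libraries, Adcy6 had 55 and 21, and Pde9a had 22 and 8. Akap5, Gnat1, Gnat2, Gng5-ps, Pde2a and Pde8b had 5 to 26 counts per genotype. The highest level of any of the 9 in a single library was 1.11 CPM, for Adcy6.

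**Figure D2:**
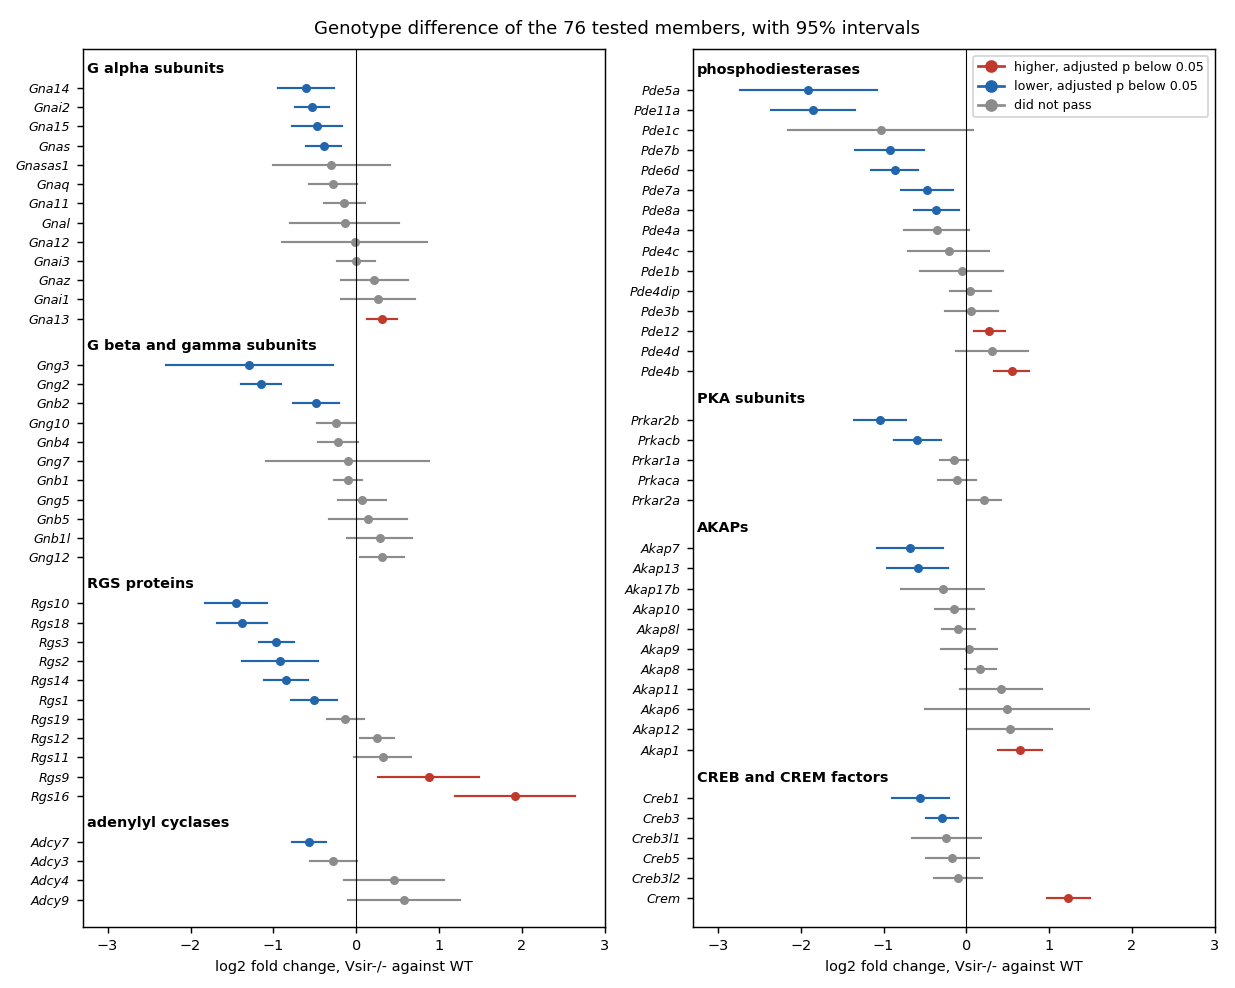
Log2 fold change (Vsir-/- against WT) of each of the 76 tested members, by role, as points with 95% intervals. Red and blue mark members higher and lower at an adjusted p below 0.05, and grey those that did not pass; the values run from -1.91 for Pde5a to 1.92 for Rgs16.

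G alpha subunits carry the signal of the receptors. The counts of this and the following groups stand beside 18.9% higher and 20.1% lower over all tested genes. Of the 12 tested, 4 were lower and 1 was higher in Vsir-/- aILC2s, and the antisense RNA Gnasas1, the other symbol in this group, did not pass. Gnai2, the main Gi alpha of leukocytes (chr9:107614125-107635367, GRCm38), stood at 1102.5, 1265.7 and 1040.2 CPM in WT and at 739, 832 and 788 CPM in Vsir-/- libraries. Every WT library was above every Vsir-/- library, and the log2 fold change was -0.53 ± 0.09 (SE, n = 3 per genotype, adjusted p from edgeR = 0.00125). Gnas, the locus of Gs alpha on chr2, had 950.4, 1053.5 and 927 CPM in WT and 662, 807 and 763 CPM in Vsir-/- libraries. It too did not overlap, at -0.39 ± 0.10 on the log2 scale (adjusted p from edgeR = 0.00790). The locus of Gnas shares 22.0% of its exonic bases with Nespas and Gm20721 on the opposite strand, and its transcripts cannot be told apart in a value per gene.

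The Gq class members Gna14 and Gna15 were lower as well. Gna14 was at 10.5 to 12.6 CPM in WT and 6.57 to 8.53 in Vsir-/- libraries, or -0.60 on the log2 scale (adjusted p from edgeR = 0.00951, 0.0540 with replicates 1 and 2 summed and 0.134 without the P1 libraries). Gna15, the Gq class subunit of blood cells, was at 49.1 to 66.4 and 37.2 to 48.1 CPM (-0.47). Gna13 was the 1 alpha subunit that was higher. It had 194, 192 and 204 CPM in WT and 262, 240.5 and 233 CPM in Vsir-/- libraries, which is 0.32 ± 0.08 on the log2 scale (adjusted p from edgeR = 0.0116). Gnai3, the other abundant Gi alpha, overlapped fully, at 279 to 347 CPM in WT and 280 to 332 in Vsir-/- libraries (log2 fold change 0.00, 95% interval -0.23 to 0.23). Gnaq, the founding Gq alpha, was at 16.4 to 21.5 and 15.0 to 16.1 CPM and did not pass (log2 fold change -0.28, adjusted p from edgeR = 0.121). The other alpha genes, Gna11, Gnal, Gnaz, Gnai1 and the antisense Gnasas1, overlapped between the genotypes.

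Gna12 separated by replicate and not by genotype. It had 91.4, 32.5 and 75.1 CPM in WT and 87.1, 30.1 and 78.5 CPM in Vsir-/- libraries, so both P1 libraries were low. Its log2 fold change was -0.02 (95% interval -0.89 to 0.86), and 0.00 without the P1 libraries. Amz1 overlaps 13.3% of the Gna12 exonic bases on the opposite strand. Without WT replicate 1, 3 alpha subunits were called in place of 5, and 2 without the P1 libraries. Gna13 did not pass without WT replicate 1 (adjusted p from edgeR = 0.0650), nor did Gna15 when replicate 1 or 2 of either genotype was left out (0.0580 to 0.0722).

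**Figure D3:**
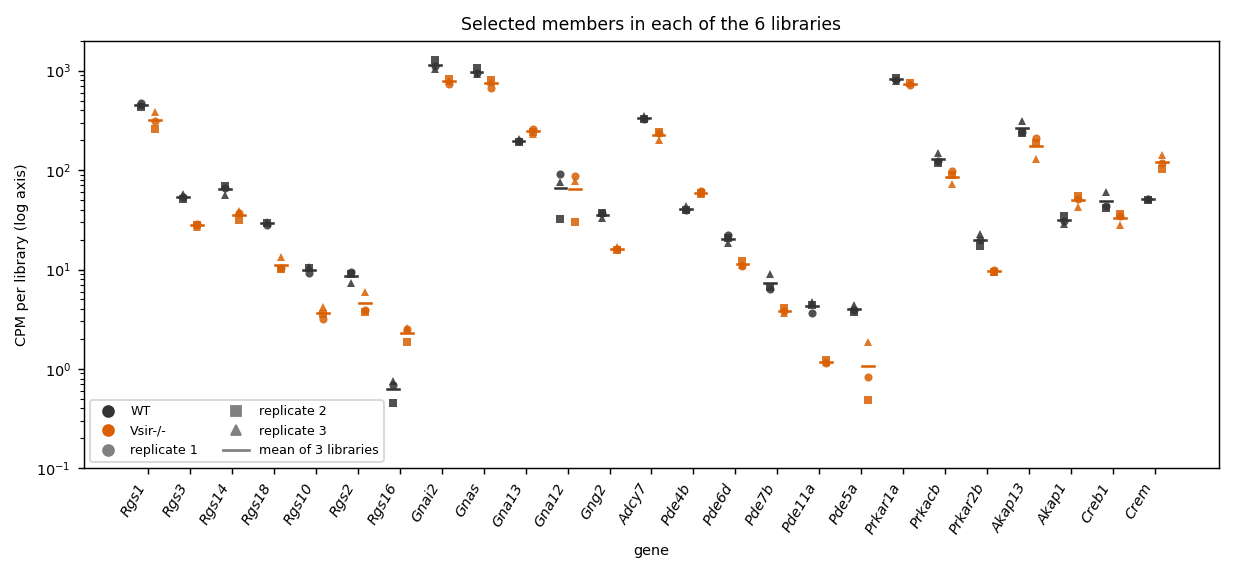
CPM (log axis) of 25 members in each library, WT in black and Vsir-/- in orange, with the replicate given by the symbol and the mean of 3 libraries by a bar. The 25 were picked by hand, and all but Prkar1a and Gna12 were called, so most pairs do not overlap by choice. Over the 76 tested members the levels did not overlap for 60.5%, and over all tested genes for 49.4%. Crem, Rgs16, Gna13, Pde4b and Akap1 were higher in Vsir-/- aILC2s. In Gna12 replicate 2 is low in both genotypes, at 32.5 and 30.1 CPM.

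Of the beta and gamma subunits, which anchor alpha and signal to channels and phospholipases, 3 of the 10 tested were lower and 0 were higher, and Gnb1l, a further symbol of the group, did not pass. With limma voom 5 were called. Gng2, a gamma subunit on chr14:19872559-19977627, had 37.0, 37.0 and 33.0 CPM in WT and 15.9, 15.6 and 16.7 CPM in Vsir-/- libraries. This was 2.22-fold lower, far outside the spread (log2 fold change -1.15 ± 0.11, adjusted p from edgeR = 2.30e-05). Gng2 shares 20.4% of its exonic bases with Gm48283 on the opposite strand. Gnb2 was lower by a smaller step, at 206, 282 and 222 CPM in WT and 152, 183 and 172 CPM in Vsir-/- libraries (-0.49). Gnb1, the most abundant beta subunit, was at 857 to 915 and 785 to 860.5 CPM, overlapped, and did not pass (-0.10, 95% interval -0.27 to 0.07). Gng3, known from neurons, was the member just inside the threshold (adjusted p from edgeR = 0.0452). It stood at 0.727 to 0.815 CPM in WT and 0.187 to 0.486 in Vsir-/- libraries, shares 24.2% of its exonic bases with Bscl2, and passed in only 1 of the 6 fits that left out a library, the one without Vsir-/- replicate 2 (0.0963 to 0.153 in the others). Gng10 shares 72.0% of its exonic bases with Gm20503 on the same strand, so its value is uncertain. The remaining gamma genes Gng5, Gng7, Gng10 and Gng12 and the beta genes Gnb4 and Gnb5 did not pass. Gng5 was at 124 to 142 CPM in WT and 121 to 174 in Vsir-/- libraries.

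Of the RGS proteins, the brakes on Gi and Gq signals, 8 of 11 (72.7%) were called, 6 lower and 2 higher, with a median log2 fold change of -0.51. Over all tested genes 38.9% were called, and the levels did not overlap for 49.4%. Those of the RGS genes did not overlap for 90.9% of the 11. Rgs1, a strong brake on chemokine receptor signals in lymphocytes, was the most abundant, at 472, 432 and 450.0 CPM in WT and 311, 258 and 381 CPM in Vsir-/- libraries. All WT libraries were higher, and the log2 difference was -0.51 ± 0.13 (adjusted p from edgeR = 0.00884, and 0.0568 with replicates 1 and 2 summed). Rgs18, known from platelets and other blood cells (chr1:144752683-144775435), had 27.7, 29.6 and 29.8 CPM in WT and 10.3, 10.0 and 13.3 CPM in Vsir-/- libraries. This was 2.60-fold lower (log2 fold change -1.38 ± 0.14, adjusted p from edgeR = 2.77e-05). Rgs10, a small RGS protein of immune cells (chr7:128373621-128418758), had 9.20, 10.3 and 10.5 CPM in WT and 3.15, 3.59 and 4.23 CPM in Vsir-/- libraries. It was 2.74-fold lower (log2 fold change -1.45 ± 0.17, adjusted p from edgeR = 8.16e-05).

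Rgs3, which acts on Gi and Gq and also binds beta-gamma, was at 53.0, 51.7 and 57.3 CPM in WT and 28.7, 27.9 and 26.6 CPM in Vsir-/- libraries (log2 fold change -0.96 ± 0.10). Rgs14, a scaffold that binds Gi alpha as well as Ras and Rap, was at 66.3, 68.95 and 56.4 CPM and at 36.7, 31.2 and 38.7 CPM (-0.85 ± 0.12). For both, the lowest WT library was far above the highest Vsir-/- library. Rgs2, selective for Gq, was at 9.45, 8.94 and 7.39 CPM in WT and 3.92, 3.77 and 5.97 CPM in Vsir-/- libraries (-0.92 ± 0.21, adjusted p from edgeR = 0.00521, and 0.0684 without the P1 libraries).

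Rgs16, an RGS protein induced on lymphocyte activation (chr1:153740349-153745468), went the other way. It had 0.689, 0.450 and 0.757 CPM in WT and 2.51, 1.88 and 2.55 CPM in Vsir-/- libraries. This was 3.78-fold higher (log2 fold change 1.92 ± 0.33, adjusted p from edgeR = 0.00102), at low levels in both genotypes. Rgs9, known from photoreceptors and striatum, was at 1.11 to 1.31 and 1.76 to 2.49 CPM (0.87 ± 0.28). It passed in only 1 of the 6 fits that left out a library, the one without Vsir-/- replicate 2 (adjusted p from edgeR 0.0585 to 0.0885 in the others). Rgs19, the second most abundant RGS gene in WT, was at 80.4 to 86.1 CPM there and 70.5 to 86.1 in Vsir-/- libraries. It did not pass (-0.13). Rgs12 was the member just outside the threshold, at 65.3 to 74.1 and 79.7 to 90.4 CPM (0.25, adjusted p from edgeR = 0.0566), and Rgs11 did not pass.

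Of the 4 adenylyl cyclases tested, 1 was called. Adcy7, the main adenylyl cyclase of lymphocytes (chr8:88272403-88329962), had 323, 326 and 353 CPM in WT and 237, 239 and 199 CPM in Vsir-/- libraries. The genotypes were well apart, by -0.57 ± 0.09 on the log2 scale (adjusted p from edgeR = 0.000793). Adcy3 was at 65.3 to 70.5 and 44.2 to 62.3 CPM and did not pass (-0.27, adjusted p from edgeR = 0.118), although limma voom called 2 cyclases. Adcy4 and Adcy9 were at or under 2.86 CPM in every library. The summed level of the 4 tested cyclases was 392.2, 395 and 427 CPM in WT and 303, 304 and 248 CPM in Vsir-/- libraries.

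The PDEs lower cAMP and cGMP. Of the 12 cyclic nucleotide PDEs tested, 5 were lower and 1, Pde4b, was higher. With Pde6d, Pde12 and Pde4dip, which share the symbol but not the function, the count was 6 lower and 2 higher of 15. Pde4b, a cAMP-specific PDE of leukocytes, had 39.5, 39.5 and 43.3 CPM in WT and 62.2, 59.2 and 57.1 CPM in Vsir-/- libraries. Replicates lay close together and the log2 fold change was 0.55 ± 0.09 (adjusted p from edgeR = 0.00105). The other cAMP-specific genes went differently. Pde7a was at 40.9 to 52.5 CPM in WT and 27.6 to 39.0 in Vsir-/- libraries (-0.48), Pde7b at 6.39 to 8.91 and 3.61 to 4.13 (-0.93 ± 0.19, adjusted p from edgeR = 0.00290), and Pde8a at 29.4 to 36.0 and 23.4 to 27.9 (-0.36). Pde4a, Pde4c and Pde4d did not pass, with log2 fold changes of -0.36, -0.22 and 0.31. The summed level of these 7 cAMP-specific genes overlapped between the genotypes, at 135 to 156 CPM in WT and 130.5 to 148 in Vsir-/- libraries.

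Among PDEs that act on cGMP, Pde5a and Pde11a were lower, and Pde1b and Pde1c did not pass (log2 fold changes -0.06 and -1.04). Pde5a, cGMP-specific (chr3:122728947-122859374), had 3.88, 3.71 and 4.43 CPM in WT and 0.835, 0.486 and 1.87 CPM in Vsir-/- libraries. Its log2 fold change was -1.91 ± 0.37 (adjusted p from edgeR = 0.00237), and -2.58 without Vsir-/- replicate 3, the highest of that genotype. Pde11a, which takes both nucleotides (chr2:75989141-76338774), had 3.69, 4.43 and 4.66 CPM in WT and 1.16, 1.22 and 1.18 CPM in Vsir-/- libraries. It was 3.60-fold lower (log2 fold change -1.85 ± 0.23, adjusted p from edgeR = 0.000129). Pde3b, a cAMP PDE inhibited by cGMP and one of the most abundant, overlapped at 71.6 to 97.2 and 69.7 to 94.2 CPM (0.06, 95% interval -0.26 to 0.38).

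Among symbols outside the enzyme family, Pde6d, a chaperone of prenylated proteins, had 22.5, 20.6 and 18.5 CPM in WT and 10.7, 12.0 and 11.02 CPM in Vsir-/- libraries (-0.86 ± 0.13), a clear gap. Pde12, a mitochondrial enzyme that trims RNA, was at 67.3 to 71.3 and 82.6 to 85.8 CPM (0.28). Pde4dip (myomegalin) did not pass. Without WT replicate 1, 5 of the 15 were called in place of 8, and likewise 5 without the P1 libraries. Pde7a and Pde8a did not pass in 4 of the 6 fits that left out a library, those without replicate 1 or 3 of the WT or replicate 2 or 3 of the Vsir-/- group (adjusted p from edgeR 0.0501 to 0.114 and 0.0849 to 0.153), nor Pde12 when WT replicate 1 or 2 or the first Vsir-/- replicate was dropped (0.0694 to 0.0772).

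Of the 5 PKA subunits, 2 were lower. Prkar2b, a type II regulatory subunit (chr12:31958476-32061296), had 19.6, 17.04 and 22.9 CPM in WT and 9.96, 9.54 and 9.40 CPM in Vsir-/- libraries. It was 2.06-fold lower (log2 fold change -1.04 ± 0.14, adjusted p from edgeR = 0.000238). Prkacb, a catalytic subunit, had 122, 118 and 149 CPM in WT and 96.9, 88.4 and 72.4 CPM in Vsir-/- libraries (-0.59 ± 0.13, adjusted p from edgeR = 0.00423). Prkar1a, the most abundant subunit, was at 790 to 850.4 CPM in WT and 718 to 750 in Vsir-/- libraries; the levels did not overlap, yet the test did not pass (-0.15, adjusted p from edgeR = 0.145). Prkaca, the other main catalytic subunit, was at 94.9 to 113 and 90.9 to 107 CPM (-0.11) and Prkar2a at 74.0 to 84.3 and 87.1 to 98.6 CPM (0.21), and neither passed.

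Of the 11 AKAPs, 2 were lower and 1 higher. Akap1, which tethers PKA to the outer mitochondrial membrane, had 31.1, 34.4 and 29.0 CPM in WT and 50.7, 54.9 and 42.8 CPM in Vsir-/- libraries, or 0.65 ± 0.12 on the log2 scale (adjusted p from edgeR = 0.00167). Akap13, a large anchoring protein, had 244, 238 and 308 CPM in WT and 209.9, 186 and 129 CPM in Vsir-/- libraries (-0.59 ± 0.17, adjusted p from edgeR = 0.0167). Its replicate 3 was the highest WT and the lowest Vsir-/- library. Replicate 3 had the same places in other called members, such as the lower Adcy7, Creb1 and Prkacb and the higher Gna13 and Pde4b. Akap7 was at 5.51 to 6.23 and 3.16 to 4.24 CPM (-0.68). Akap8, a nuclear anchor, was at 133 to 136 and 140 to 161 CPM (0.17), Akap8l at 52.1 to 54.2 and 47.7 to 51.6 (-0.09) and Akap9, of the Golgi and centrosome, at 35.2 to 51.9 and 38.5 to 49.98 (0.03). These 3 did not pass, nor did Akap6, Akap10, Akap11, Akap12 and Akap17b. The count was 1 without Vsir-/- replicate 2, 6 without Vsir-/- replicate 3 and 1 without the P1 libraries. Akap13 did not pass without WT replicate 3 (0.0577) or Vsir-/- replicate 2 (adjusted p from edgeR = 0.0508), and Akap7 did not pass without Vsir-/- replicate 2 (0.0558).

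Crem was the clearest change among the transcription factors and had the smallest adjusted p of all members. The gene, on chr18:3266048-3337748 of GRCm38, encodes cAMP response element modulators, and an internal promoter that cAMP induces gives the repressor ICER; the values are per gene and do not separate these forms. Crem stood at 51.7, 50.6 and 51.1 CPM in WT and 117, 103 and 140 CPM in Vsir-/- libraries. The WT libraries were almost equal and every Vsir-/- library was far above them, at a 2.35-fold higher level (log2 fold change 1.23 ± 0.12, adjusted p from edgeR = 2.07e-05). Creb1, the CREB factor itself, was lower, with 43.5, 41.8 and 59.7 CPM in WT and 34.4, 36.5 and 27.8 CPM in Vsir-/- libraries (-0.55 ± 0.16, adjusted p from edgeR = 0.0165, and 0.0643 without Vsir-/- replicate 3). Creb3, a factor held in the endoplasmic reticulum, was at 95.02 to 108 and 81.6 to 84.8 CPM (-0.29). It did not pass when replicate 1 or 2 of either genotype was left out (adjusted p from edgeR 0.0586 to 0.102), and it shares 20.8% of its exonic bases with Gba2 and Tln1. Creb3l2 was at 145 to 180 CPM in WT and 120 to 163 in Vsir-/- libraries (-0.10), and neither it nor Creb3l1 and Creb5 passed.

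Shares within each role group were taken from levels per length, as CPM per kilobase of merged exons. Elsewhere in the text, summed levels and the term most abundant refer to CPM without regard to length. Adcy7 made up 81.2% of the adenylyl cyclase transcript in WT and 77.3% in Vsir-/- aILC2s. Prkar1a made up 71.7% and 72.2% of the PKA subunit transcript, and Gnb1 48.1% and 50.4% of the beta and gamma transcript. Gnai2 held 52.2% of the alpha transcript in WT and 45.3% in Vsir-/- aILC2s, with Gnai3 at 16.4% and 20.4% and Gnas at 15.2% and 14.5%. Rgs1 held 41.7% and 39.998% of the RGS transcript, and Rgs19 24.2% and 30.5%. The order within the CREB and CREM factors was less even: Creb3 went from 54.0% in WT to 43.7% in Vsir-/- aILC2s and Crem from 10.9% to 25.4%, with no overlap between the libraries (Crem 10.7% to 11.3% in WT, 21.7% to 30.0% in Vsir-/-). Among the cyclic nucleotide PDEs alone, Pde3b held 28.0% and 32.0%, Pde8a 25.2% and 21.4%, Pde7a 18.7% and 14.7% and Pde4b 12.2% and 19.4%. Among the AKAPs, Akap8 held 27.0% and 29.7%, Akap13 21.8% and 14.1% and Akap1 12.5% and 19.1%. With the length of the longest transcript in place of merged exons, the leading WT gene was the same in all 8 groups defined by symbol, but several shares moved. By that length Gnas held 26.0% and 25.7% of the alpha transcript and Gnai3 9.93% and 12.8%, which turned their order, Crem held 16.96% and 36.3% of its group, and Pde4b held 20.6% and 30.7% of the cyclic nucleotide PDEs, ahead of Pde3b (28.6%) in Vsir-/- aILC2s.

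**Figure D4:**
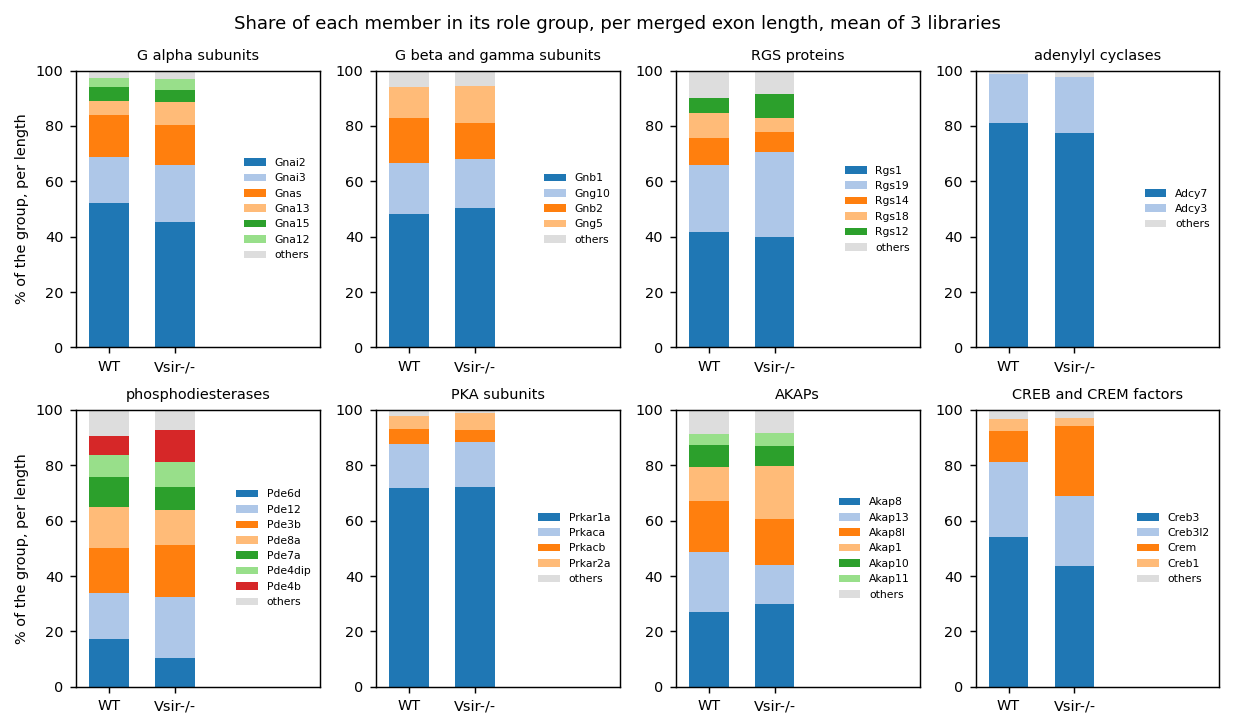
Share of each member in the transcript of its role group, in percent of the CPM per kilobase of merged exons, as the mean of 3 libraries per genotype. Groups are by symbol, so Pde6d, Pde12 and Pde4dip stand with the PDEs, and members under 4% in both genotypes are joined as others. Crem takes 10.9% of its group in WT and 25.4% in Vsir-/- aILC2s, and Adcy7 about the same large share of the cyclases in both.

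Genes next to these members in the pathway were read from 2 lists. Of 39 couplers and effectors, 34 were tested. They are receptor kinases, arrestins, nucleotide-exchange helpers, phospholipase C beta, PKA inhibitors, CREB coactivators and other effectors. Of the 34, 15 (44.1%) were lower and 3 (8.82%) higher (Gpsm1, Plcb3 and Crtc2), beside 20.1% and 18.9% of all tested genes. Their median log2 fold change was -0.32. Arhgef1, which Gna13 activates in lymphocytes, had 704, 748 and 737 CPM in WT and 446, 479.6 and 449 CPM in Vsir-/- libraries (-0.67 ± 0.08, adjusted p from edgeR = 7.77e-05). Its direction was thus opposite to that of Gna13. Grk6, a kinase that desensitises receptors, had 325, 340.2 and 314 CPM and 205, 198 and 208 CPM (-0.68 ± 0.08). Gpsm3, a regulator of Gi alpha, was at 83.0 to 96.4 and 47.8 to 56.4 CPM (-0.72 ± 0.11). Crtc3, a coactivator of CREB, was at 51.7 to 58.3 and 28.8 to 31.4 CPM (-0.87 ± 0.10), while Crtc2, a relative, was higher (0.28).

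The list of textbook CREB target genes, like that of couplers, was drawn up with earlier results of these data known, so its count is a description only. Of its 16 genes, 12 were tested, 6 were higher and 2 lower, with a median log2 fold change of 0.68. These counts stand beside 18.9% higher and 20.1% lower over all tested genes. Junb, an AP-1 factor, had 240.1, 258 and 230.5 CPM in WT and 736, 911 and 842 CPM in Vsir-/- libraries (1.77 ± 0.10, adjusted p from edgeR = 5.22e-07). Atf3, a stress-induced factor, was at 1.90 to 2.94 and 13.0 to 14.2 CPM (2.62 ± 0.19), Areg, the growth factor amphiregulin made by ILC2s, at 117 to 131 and 318 to 409 CPM (1.48 ± 0.11), and Nr4a1, an early-response nuclear receptor, at 14.3 to 15.4 and 27.6 to 29.6 CPM (0.95 ± 0.11). These 4 were picked for the smallest p of the list, so their lack of overlap between the genotypes follows from the choice. Over the 12 tested genes of the list the levels did not overlap for 9 (75.0%), and over all tested genes for 49.4%. Nr4a2 and Cebpb were the other higher genes. Fos, itself a classic CREB target, was lower, at 14.7 to 17.005 CPM in WT and 6.38 to 8.42 in Vsir-/- libraries (-1.14 ± 0.15), as was Sgk1 (-0.47). Other pathways induce all of these genes too.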

How the data were processed

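Bulk RNA-seq of sorted lung ILC2s was analysed in 3 WT and 3 Vsir-/- libraries, made with a low-input cDNA kit from 10 pg of RNA each. Per the labels and the submitters' processing notes, the authors worked with Partek 10.0, STAR 2.7.8, mm10 and DESeq2. The deposited values are estimated counts per gene (60.8% to 69.5% of values per library within 0.01 of a whole number), here rounded. The annotation and the use of strand are not given in the sources used here. All 85 members were placed on GENCODE vM21 (GRCm38, the build of mm10).

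Genes were filtered with edgeR's filterByExpr (minimum count 10), scaled with TMM and tested with the quasi-likelihood test of edgeR 4.0.16 in R 4.3.3. CPM (counts-per-million) values use the TMM-scaled library total. Log2 fold changes are unshrunken coefficients. On counts simulated at the depths of these libraries (13154 genes) the fit recovered 59% of genes changed 1.5-fold and 100% of those changed 3-fold. There were 8 false calls among 167. The simulated libraries were independent, with a common dispersion of 0.0149 for all genes and few changed genes. The real counts differ in these points, so the rates may not hold for them. Alternatives used DESeq2 1.42.0, limma 3.58.1, other filters and factors, and left-out libraries. Members, roles and lists were chosen with earlier results of these data known. The rule for named genes took called members with an absolute log2 fold change of at least 1, the 3 most abundant and the smallest adjusted p of each role group, a list of members known in lymphocytes, the 4 smallest p of each pathway list and the members next to the threshold; other called members were added after their values were seen. In all, 30 members share exonic bases with another gene, 8 of them over 20%. Overlaps on opposite strands cannot be told apart if strand was not used, and those on the same strand (Gng10 with Gm20503, Pde2a with Gm45837) in neither case. The main fit did not pair same-numbered replicates of the genotypes.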

Additional observations from a re-analysis of the deposited data

How the results depend on the processing

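No called result changed direction under any alternative run; of the members that did not pass, Akap9, Creb3l2, Gna12, Gnai3, Gng5, Pde3b and Pde4dip, all with small log2 fold changes, changed sign in some. Single genes taken by the rule for named genes gave 761 comparisons with an alternative. Of these, 715 kept their side of the threshold, 39 lost it and 7 gained it. Called members outside that rule, such as Rgs9, Gna15 and Pde8a, are not among them. The 761 include the Gnai2 share per length, which has no threshold. Over all genes 3708 were called with replicates 1 and 2 summed. Members called numbered 33 with DESeq2 (31 shared with the 33), 39 with limma voom (33 shared), 34 with RLE factors and 27 of 59 with a filter at a mean of 5 CPM. At an adjusted p of 0.01 the counts were 3327 for all genes, 4 members higher and 17 lower, 3 alpha subunits, 1 beta or gamma subunit, 5 PDEs, 1 AKAP, 1 CREB or CREM factor and 11 couplers. At a called change of at least 1.5-fold they were 2957 for all genes, 4 members higher and 16 lower, 0 adenylyl cyclases, 1 alpha subunit, 4 PDEs and 1 CREB or CREM factor. With limma voom, 11 members were higher, and 2 adenylyl cyclases, 5 AKAPs and 5 beta or gamma subunits were called. With replicates 1 and 2 summed, 4 members were higher and 2 alpha subunits were called. Without the P1 libraries, a choice added after the data were seen, the counts were 3240 for all genes, 4 members higher and 17 lower, 2 alpha subunits, 1 AKAP and 5 PDEs. Without single libraries, 4 to 10 members were higher, and 3 to 5 alpha subunits, 1 to 6 AKAPs and 5 to 8 PDEs were called. The cause of these differences was not tested, beyond the smaller number of libraries or the stricter threshold itself. With the CRE core in place of the full element, 35.8% of members had a match.

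Deviations of same-numbered libraries from their genotype means correlated at -0.0956, 0.197 and -0.476 over 8567 genes. Those of differently numbered libraries correlated at -0.497 to 0.500. With 3 libraries per genotype, such values cannot show whether the numbers pair the genotypes. With a replicate block, 4 members were higher and 23 lower; Creb3, Gna13, Gng3, Pde12, Pde8a and Rgs9 did not pass. Depth limits members under about 1 CPM, such as Gng3 and Rgs16 in WT, where few reads carry a value.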

Other observations

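Vsir lies on chromosome 10, with 7 members. Of these, Akap7, Gna15 and Pde7b were lower in Vsir-/- aILC2s, at 35.2, 21.2 and 39.9 megabases from Vsir (GRCm38), while Gnaz, the nearest at 14.6 megabases, did not pass (log2 fold change 0.22), nor did Akap12, Gna11 and Gng7.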
